A study of Homo sapiens with 9 samples.

Results

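Vitamin D acts through a short chain of enzymes and a nuclear receptor. Microsomal *CYP2R1* and mitochondrial *CYP27A1* encode enzymes that hydroxylate vitamin D in the liver to calcidiol, *CYP27B1* encodes the enzyme that makes the active hormone calcitriol from it, and *CYP24A1* encodes the enzyme that breaks both down. Calcitriol binds the vitamin D receptor, encoded by *VDR*, which pairs with a retinoid X receptor such as the products of *RXRA* and *RXRB* and binds DNA. *CYP24A1* is the best known target of this pair and is strongly induced by the hormone in many epithelial cells. These 7 genes were chosen by their roles, with the level and fold changes of genes in these same libraries already known, and were found by symbol among the 60660 gene identifiers of the count table.

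Transcripts were counted in OVCAR3, an established human cell line derived from ovarian carcinoma, in 9 libraries of 3 groups with 3 libraries each. CTCFL-OE cells were transfected for a transient rise of *CTCFL* (also called BORIS, a paralog of the insulator protein gene *CTCF*) with 2 µg of a plasmid that carries its open reading frame and were collected after 48 h. CTCFL-KD cells had received siRNA against *CTCFL*, and their RNA came from an earlier knockdown experiment, so handling and knockdown cannot be told apart. Control cells received a LacZ plasmid according to the study's methods and no treatment according to the sample labels. The 3 groups share the parental line and the medium with 20% fetal bovine serum, each biological replicate pooled 3 technical replicates, and the same 3 Control libraries served for both comparisons. No vitamin D compound is named in any group, and serum itself can hold vitamin D metabolites.

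The libraries held 14332622 to 24490080 counts each, so that a gene without a read could still have a level of up to 3 counts, or 0.117 to 0.271 CPM. CPM, the count of a gene scaled to library size with TMM factors, was used for the values below unless another scale is named. Mitochondrial genes took 6.16% to 6.52% of counts in Control, 7.40% to 14.9% in CTCFL-OE and 7.80% to 11.8% in CTCFL-KD. CTCFL-KD replicate 1 stood apart, with a TMM factor of 0.775 against 0.945 to 1.09 in the other 8 libraries. Its log2 ratio to the other CTCFL-KD libraries fell with gene length (Spearman's rho of -0.52 across 11610 genes, which are not independent replicates), which touches long genes and values per length. The targeted gene followed its labels. *CTCFL* had counts of 6, 9 and 10 in Control, of 36, 34 and 72 with the plasmid and of 0, 1 and 0 with siRNA. The log2 fold change was 2.73 ± 0.48 (SE) in CTCFL-OE, and the ratio of Control to CTCFL-KD was 17.6 with a counting interval of 2.89 to 724. The 10 epithelial carcinoma markers were all detected in every group, and their summed level was 4708 to 4855 CPM in Control, 4271 to 4669 CPM in CTCFL-OE and 9797 to 16852 CPM in CTCFL-KD. The highest value was that of CTCFL-KD replicate 1, and the other CTCFL-KD libraries were at 10293 and 9797 CPM. Of these 10 markers, 6 rose in CTCFL-KD by the test used below, where 15.3% of all tested genes did, and *WT1* lay below all Control libraries at a log2 fold change of -0.63 ± 0.20 (SE).

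A site for CTCFL, predicted from motifs, is listed by the study for *CYP24A1*, and it is shown here because this gene fell in both comparisons. *CYP24A1* is not among the genes that the study names with a ChIP-seq peak at such a site. The listed letters were found once in GRCh38 within 50 bases of the listed position, at chr20:54155451-54155460 on the plus strand, opposite to the strand of the gene. They lie in intron 11 of the 12-exon canonical transcript, 18.5 kb downstream of its start, and 1838 bases from the start of a short noncoding transcript of the same gene. The site is given in capitals with 20 bases on each side, 5′ to 3′.
*CYP24A1* intron 11: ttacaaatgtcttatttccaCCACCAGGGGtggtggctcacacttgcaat
Over the 34941 promoters of the RefSeq table (250 bases before each start), 0.215% held CCACCAGGGG on either strand. This share is for promoters and not for introns. A match of letters is a description and not evidence of binding.

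The promoter of *CYP2R1* is shown because it was the more abundant of the 2 genes of the group that rose in CTCFL-KD. Its 250 bases before the start, from RefSeq on GRCh38.p14, span chr11:14892232-14892481 on the minus strand and have a GC content of 61.6%, against a median of 58.0% over all promoters of that table. Capitals mark the single GC box (GGGCGG, searched on both strands), which starts at base -76 from the gene start. This motif was present in 42.5% of all promoters.
*CYP2R1* promoter: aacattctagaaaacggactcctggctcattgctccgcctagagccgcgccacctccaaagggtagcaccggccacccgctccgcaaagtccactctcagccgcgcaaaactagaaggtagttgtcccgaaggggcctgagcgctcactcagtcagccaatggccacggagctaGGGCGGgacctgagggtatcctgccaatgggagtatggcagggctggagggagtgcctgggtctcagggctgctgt
The nuclear receptor half-sites AGGTCA and AGTTCA, searched on both strands, were present in 12.1% and 8.81% of promoters and had no match in this window. The table also held promoters of *CYP27A1*, *RXRA* and *RXRB*. It lists 3 promoters for *CYP2R1*, 2 each for *RXRA* and *RXRB* and 1 for *CYP27A1*, and for each gene the one at the start of its canonical GENCODE 44 transcript was searched. AGTTCA was found in that of *CYP27A1*, whereas AGGTCA was found in none of the 4. GGGCGG was found in each of them.

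*CYP24A1* was lower than in Control in both altered groups, by 6.92-fold between the mean levels in CTCFL-OE and, from 2 counts in all, by a ratio of summed counts of 479 in CTCFL-KD. The gene lies at chr20:54153446-54173986 on the minus strand of GRCh38. In Control its level was 19.7, 22.5 and 19.6 CPM (394, 578 and 386 counts), in CTCFL-OE 1.73, 2.82 and 4.36 CPM (38, 54 and 71 counts). In CTCFL-KD the 3 libraries held 0, 0 and 2 counts. The groups did not overlap, and each CTCFL-OE library lay below each Control library and above each CTCFL-KD library. The mean of 2.97 ± 1.3 CPM (SD, n = 3) in CTCFL-OE was 14.4% of the Control mean of 20.6 ± 1.63 CPM (SD, n = 3), a log2 fold change of -2.81 ± 0.33 (SE). In CTCFL-KD the counts summed over the 3 libraries and scaled to their sizes were 0.209% of those in Control, and the 95% counting interval of the ratio of 479 was 132 to 3959. Without CTCFL-KD replicate 3, which held both reads, the level was at least 96.5-fold lower, taken against 3 counts per library, and without replicate 2 the ratio was 304 (counting interval 84.1 to 2516). Counting intervals cover counting error only. *CYP24A1* was a differentially expressed gene (DEG) in both comparisons, that is, it differed by more than 1 on the log2 scale with an adjusted p below 0.1 for CTCFL-OE and below 0.05 for CTCFL-KD. Only 86 of the 17794 genes tested, or 0.483%, were lower DEGs in both. Leaving out 1 library at a time moved that count from 22 (without Control replicate 3) to 139 (without CTCFL-KD replicate 1), with *CYP24A1* among these genes each time. No p-value is given for the 7 genes, since they were chosen with results in view. In bulk RNA, fewer cells that express a gene and less RNA per cell cannot be told apart.

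**Figure D1:**
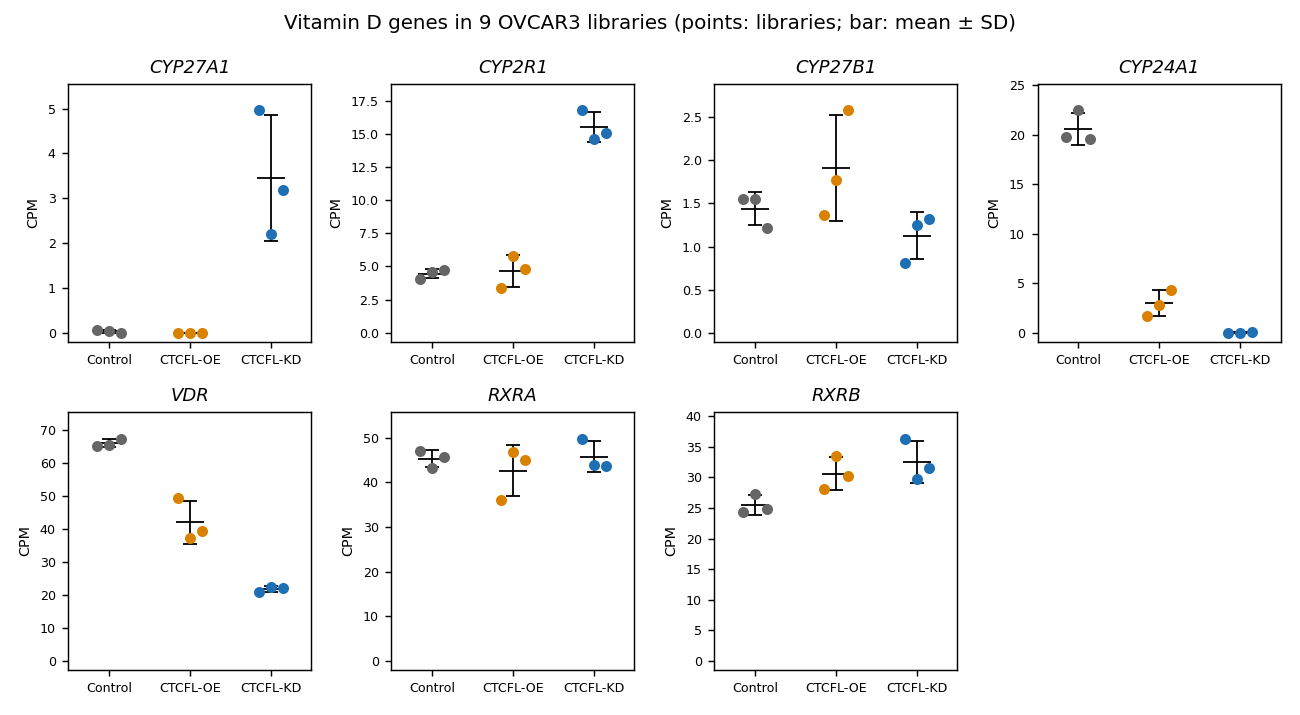
Level of the 7 vitamin D genes in CPM (y axis, linear, one scale per panel) in Control, CTCFL-OE and CTCFL-KD; each point is a library and each bar the mean ± SD of 3 libraries. *CYP24A1* and *VDR* step down from Control to CTCFL-OE to CTCFL-KD, *CYP27A1* and *CYP2R1* are high in CTCFL-KD alone, and *RXRA* overlaps in all groups.

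The 2 enzymes of the first hydroxylation were both higher in CTCFL-KD. *CYP27A1* (chr2:218781749-218815293, plus strand), a sterol hydroxylase that also acts in bile acid synthesis, was near absent outside this group. It had counts of 1, 1 and 0 in Control, of 0 in each CTCFL-OE library and of 55, 37 and 58 in CTCFL-KD, or 4.96, 2.20 and 3.18 CPM. Every CTCFL-KD library thus lay above every other library. The ratio of CTCFL-KD to Control was 106, with a counting interval of 28.9 to 886. No fold is given for CTCFL-OE against Control because both held 3 counts or fewer in all. Since *CYP27A1* passed the filter on low counts through CTCFL-KD alone, it could enter the test only as a gene high there.

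*CYP2R1* (chr11:14877440-14892231, minus strand) was expressed in all groups. It was at 4.06, 4.55 and 4.76 CPM in Control and at 3.37, 5.80 and 4.79 CPM in CTCFL-OE, which overlapped. In CTCFL-KD it reached 16.8, 14.6 and 15.1 CPM, above all other libraries. The mean rose 3.48-fold from 4.45 ± 0.361 to 15.5 ± 1.14 CPM (SD, n = 3), a log2 fold change of 1.79 ± 0.22 (SE). Against this, the CTCFL-OE value was 0.06 ± 0.22.

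*CYP27B1* (chr12:57762334-57768986, minus strand), which encodes the activating hydroxylase, was low in every group and was a DEG in no comparison. Its level was 1.55, 1.55 and 1.22 CPM in Control, 1.37, 1.78 and 2.58 CPM in CTCFL-OE and 0.812, 1.25 and 1.31 CPM in CTCFL-KD, with 9 to 42 counts per library. The log2 fold change was 0.39 ± 0.30 (SE) in CTCFL-OE and -0.33 ± 0.32 in CTCFL-KD, and both groups overlapped with Control. Its exons share 107 bases (3.3%) with *METTL1* on the same strand, so reads there could belong to either gene.

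*VDR* (chr12:47841537-47943048, minus strand) was lower in both altered groups, less so in CTCFL-OE. Its level was 65.1, 65.3 and 67.3 CPM in Control, 49.4, 37.2 and 39.3 CPM in CTCFL-OE and 20.8, 22.5 and 22.1 CPM in CTCFL-KD. None of the 3 groups overlapped. In CTCFL-KD *VDR* fell 3.02-fold, from 65.9 ± 1.24 to 21.8 ± 0.864 CPM (SD, n = 3), with a log2 fold change of -1.59 ± 0.17 (SE). In CTCFL-OE the mean was 42.0 ± 6.55 CPM and the log2 fold change -0.65 ± 0.16 (SE), which passed the adjusted p threshold, as did 1.16% of all genes in that direction, and not the fold threshold, so *VDR* was not a DEG there. This pass was kept in 9 of 18 alternative fits and in 2 of the 9 that left out 1 library.

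The receptor partners differed little. *RXRA* (chr9:134317098-134440585, plus strand) was at 46.9, 43.2 and 45.7 CPM in Control, 36.0, 46.8 and 45.0 CPM in CTCFL-OE and 49.8, 43.9 and 43.5 CPM in CTCFL-KD. The ranges overlapped, and the log2 fold changes were -0.09 ± 0.16 (SE) and 0.01 ± 0.16. *RXRB* (chr6:33193588-33200665, minus strand) was at 24.3, 27.4 and 24.8 CPM in Control, 28.1, 33.5 and 30.2 CPM in CTCFL-OE and 36.3, 29.7 and 31.5 CPM in CTCFL-KD. Both altered groups lay above Control without overlap, by a log2 fold change of 0.27 ± 0.16 (SE) and 0.35 ± 0.16, and *RXRB* was a DEG in neither. Its exons share 361 bases (9.3%) with *SLC39A7* on the opposite strand, and whether the counting used strand is not given in the sources used here.

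**Figure D2:**
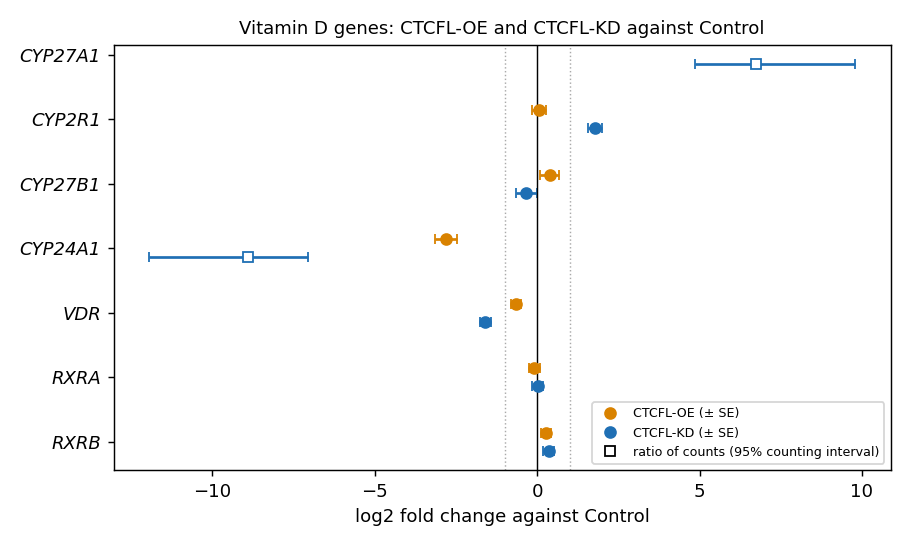
Log2 fold change of the 7 genes against Control (x axis); circles are fitted values ± SE, open squares ratios of counts with 95% counting intervals, and dotted lines mark a log2 fold change of 1 in each direction. The value of *CYP27A1* in CTCFL-OE is not drawn because both groups held 3 counts or fewer, and the furthest points are *CYP24A1* and *CYP27A1* in CTCFL-KD.

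All 7 genes passed the filter on low counts. In CTCFL-OE 1 of 7 was a DEG, lower, where 2.07% of all tested genes were DEGs (0.702% lower). In CTCFL-KD 2 of 7 were higher and 2 lower, where 23.2% of all tested genes were DEGs (15.3% higher, 7.94% lower). Libraries did not overlap with Control for 3 of the 7 genes in CTCFL-OE and 5 of the 7 in CTCFL-KD, against 37.1% and 56.3% of all tested genes. The 7 genes were chosen with these comparisons known, so nothing is read from the counts.

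The altered groups were also set against each other, a contrast in which the Control libraries enter only the estimate of the spread and the scaling. Here 17.0% of the tested genes were DEGs at an adjusted p under 0.05 (10.6% higher and 6.42% lower in CTCFL-KD). *CYP2R1* was higher in CTCFL-KD than in CTCFL-OE by a log2 fold change of 1.73 ± 0.22 (SE), and *CYP27A1* was at least 21.6-fold higher, taken against 3 counts per CTCFL-OE library. *CYP24A1* was lower by a ratio of 65.6 (counting interval 17.9 to 546). *VDR* was lower by a log2 value of -0.94 ± 0.16 (SE), which passed the adjusted p threshold, as did 11.5% of all genes in that direction, and not the fold threshold. It became a DEG with no filter on low counts (-1.01) and without CTCFL-OE replicate 2 (-1.03). *CYP27B1* (-0.72 ± 0.31) did not overlap between these groups, like 39.8% of all genes, yet was no DEG, and *RXRA* (0.10) and *RXRB* (0.09) overlapped.

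The order of the 7 genes among themselves was read per length, in TPM from the exon lengths of GENCODE 44. In Control *VDR* was the most abundant at 35.1 ± 1.15 TPM (SD, n = 3), followed by *RXRB* at 19.8 ± 1.69, *CYP24A1* at 15.6 ± 1.53 and *RXRA* at 11.3 ± 0.262 TPM. *CYP2R1* at 3.0 ± 0.30, *CYP27B1* at 1.33 ± 0.178 and *CYP27A1* at 0.0299 TPM followed, and no neighbours in this order overlapped. In CTCFL-OE *RXRB* at 20.7 ± 3.01 and *VDR* at 19.7 ± 5.80 TPM overlapped, as did *CYP2R1*, *CYP24A1* and *CYP27B1* in sequence at 2.69, 1.88 and 1.48 TPM. In CTCFL-KD *RXRB* stood alone at 19.3 ± 4.42 TPM, while *VDR*, *RXRA* and *CYP2R1* overlapped at 9.16, 8.81 and 8.03 TPM. That overlap came with CTCFL-KD replicate 1, since replicates 2 and 3 held 10.7 and 11.1 TPM for *VDR*, 9.85 and 10.2 TPM for *RXRA* and 8.82 and 9.51 TPM for *CYP2R1*. Thus *CYP24A1* was the third gene of the order in Control and the last in CTCFL-KD, at 0.0260 TPM.

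Genes that supply the substrates and electrons of these enzymes were counted next. Of 13 listed genes for uptake, transport, precursor supply and electron transfer, 7 were tested. In CTCFL-KD 4 rose and none fell, where 15.3% of all tested genes rose and 7.94% fell. The list median log2 fold change was 1.21 against 0.08 over all genes. *LRP2*, which encodes megalin, the endocytic receptor that takes up vitamin D bound to its carrier, was at 14.7, 20.1 and 16.4 CPM in Control and 189, 284 and 296 CPM after knockdown. The log2 fold change was 3.91 ± 0.24 (SE; edgeR quasi-likelihood, Benjamini-Hochberg adjusted p = 3.04e-06). *DHCR7*, whose enzyme turns the sterol precursor of vitamin D into cholesterol, rose by a log2 value of 1.78 ± 0.27 (SE; edgeR quasi-likelihood, Benjamini-Hochberg adjusted p = 0.00059). *CYP2J2*, an epoxygenase with vitamin D hydroxylase activity, rose by 1.66 ± 0.32 and *POR*, the electron donor of microsomal P450 enzymes, by 1.21 ± 0.27. *FDX1* and *FDXR*, the electron carriers of mitochondrial P450 enzymes such as the products of *CYP27A1*, *CYP27B1* and *CYP24A1*, had values of -0.26 ± 0.21 and 0.40 ± 0.29, were not DEGs and are named for their role after their values were seen. *FDXR* was at 25.9 CPM in CTCFL-KD replicate 1 and at 11.7 and 11.6 CPM in the other CTCFL-KD libraries, beside 11.8 to 13.0 CPM in Control.

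In CTCFL-OE 0 of these 7 genes were DEGs by edgeR, 2 had an unadjusted p under 0.05, and DESeq2 called 1, *CYP2J2*. The list had a median of 0.50 against -0.01 over all genes, and of 0.76 without CTCFL-OE replicate 1. In that library *DHCR7* and *POR* were below all Control libraries, at 64.4 and 72.4 CPM, whereas they were at 118 and 135 CPM in replicate 2 and at 147 and 160 CPM in replicate 3. The mitochondrial share of counts ran the same way, at 7.40%, 12.4% and 14.9%, and its part in these values was not tested. *LRP2* there was at 28.6, 35.5 and 28.3 CPM, above all Control libraries, with a log2 fold change of 0.85 ± 0.22 (SE) that passed the adjusted p threshold and not the fold threshold. *CYP2J2* was the only gene of the list with a fold beyond the threshold, at 1.04 ± 0.32, and did not pass the adjusted p. It was at 5.02, 8.20 and 14.1 CPM, all above Control but spread widely.

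**Figure D3:**
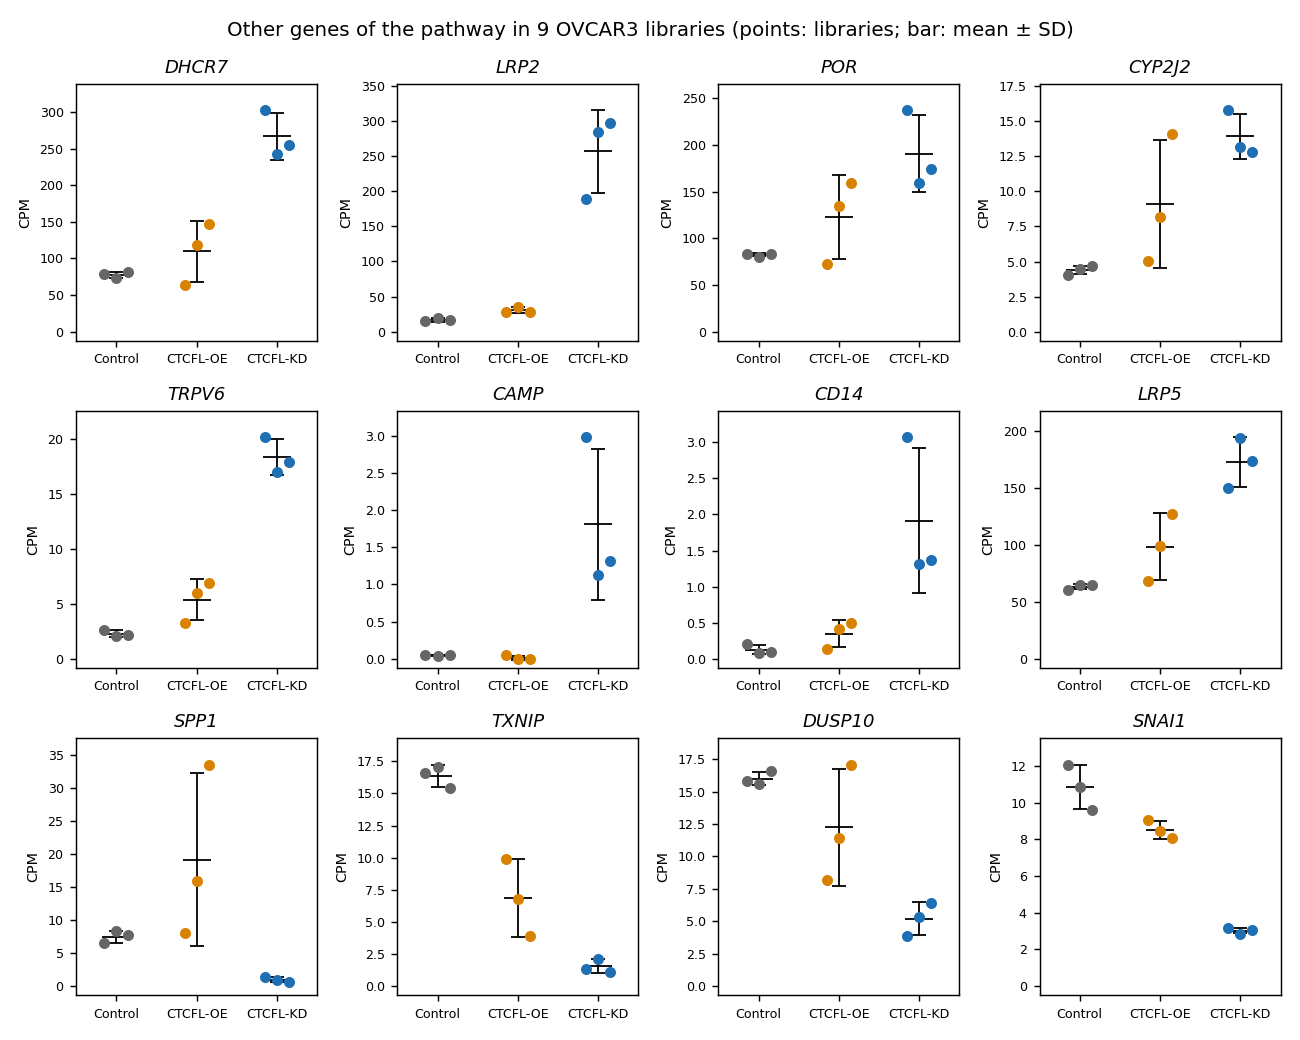
Level in CPM (y axis, linear, one scale per panel) of 12 other genes of the pathway in the 9 libraries; points are libraries and bars the mean ± SD of 3. The panels from *DHCR7* to *LRP5* are highest in CTCFL-KD and those from *SPP1* to *SNAI1* lowest there, and CTCFL-OE spreads widely for several genes, as for *SPP1* from 8.07 to 33.6 CPM.

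Known VDR target genes other than *CYP24A1* moved in both directions. Of 32 listed genes 21 were tested, and in CTCFL-KD 6 rose and 5 fell, where 15.3% and 7.94% of all tested genes did. The list median was 0.63 against 0.08 over all genes. *TRPV6*, an epithelial calcium channel that calcitriol induces in the intestine, was at 2.65, 2.06 and 2.18 CPM in Control, 3.28, 5.96 and 6.88 CPM in CTCFL-OE and 20.1, 16.9 and 17.9 CPM in CTCFL-KD. The 3 groups did not overlap, and the value in CTCFL-KD was 2.99 ± 0.27 (SE; edgeR quasi-likelihood, Benjamini-Hochberg adjusted p = 2.63e-05). *CAMP*, the cathelicidin gene, was at 1 count in each Control library and at 2.98, 1.13 and 1.31 CPM in CTCFL-KD, a ratio of 35.9 with a counting interval of 11.8 to 178. Like *CYP27A1*, *CAMP* and *CD14* passed the filter on low counts through CTCFL-KD alone and could be called only as high there. *CD14*, a co-receptor for lipopolysaccharide, rose by 3.84 ± 0.58 and *LRP5*, a Wnt co-receptor, by 1.44 ± 0.23. Named after their values were seen, the other 2 that rose were *HILPDA* (1.21 ± 0.18) and *INSIG2* (1.08 ± 0.27), and *INSIG2* lost its call without CTCFL-KD replicate 3.

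Among the targets that fell in CTCFL-KD were genes that calcitriol is known to induce as well as 1 that it represses. *TXNIP*, which encodes a thioredoxin inhibitor first described as induced by vitamin D, was at 16.6, 17.1 and 15.4 CPM in Control, 9.90, 6.79 and 3.87 CPM in CTCFL-OE and 1.35, 2.14 and 1.10 CPM in CTCFL-KD. Its groups did not overlap either, and the log2 fold change in CTCFL-KD was -3.41 ± 0.36 (SE; edgeR quasi-likelihood, Benjamini-Hochberg adjusted p = 6.09e-05). *SPP1*, which encodes osteopontin, fell by 3.03 ± 0.52 on the log2 scale in CTCFL-KD, from 6.51, 8.28 and 7.70 CPM to 1.35, 0.892 and 0.603 CPM. In CTCFL-OE it was at 8.07, 15.9 and 33.6 CPM and overlapped with Control. *DUSP10*, a MAP kinase phosphatase gene, fell by 1.61 ± 0.28. *PTHLH*, the gene of parathyroid hormone-related protein, which calcitriol is known to repress, fell by 1.54 ± 0.44. The call of *PTHLH* was lost without CTCFL-KD replicate 2. The fifth was *NRIP1* at -1.25 ± 0.37, named after its value was seen, which lost its call without Control replicate 2, Control replicate 3 or CTCFL-KD replicate 1 and with edgeR on the 2 groups alone.

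In CTCFL-OE 2 of the 21 targets were DEGs, where 2.07% of all tested genes were. DESeq2 called 3, adding *SPP1*. The list median was 0.10 against -0.01 over all genes, and 0.23 without CTCFL-OE replicate 1, where 22 targets were tested. *TRPV6* was higher by 1.22 ± 0.27 and *TXNIP* lower by -1.25 ± 0.31, with edgeR quasi-likelihood p of 0.0607 and 0.081 after Benjamini-Hochberg adjustment. Both calls were lost without any 1 of the Control libraries and without CTCFL-OE replicate 2 or replicate 3. Against each other, CTCFL-KD exceeded CTCFL-OE in *TRPV6* (1.77 ± 0.26), *CD14* (2.44 ± 0.51), *CAMP* (ratio 94.4, counting interval 16.4 to 3777) and *CDKN1A* (1.22 ± 0.24), the gene of the cell cycle inhibitor p21. *HILPDA* (1.11 ± 0.18), named after its value was seen, was also higher and lost this call without CTCFL-KD replicate 3. Against Control, *CDKN1A* had a value of 0.32 ± 0.23 in CTCFL-KD and of -0.90 ± 0.23 in CTCFL-OE, and was a DEG in neither. CTCFL-KD lay below CTCFL-OE in *SPP1* (-4.38 ± 0.53), *TXNIP* (-2.16 ± 0.36) and *DUSP10* (-1.22 ± 0.28), of which *DUSP10* lost its call without CTCFL-OE replicate 3.

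**Figure D4:**
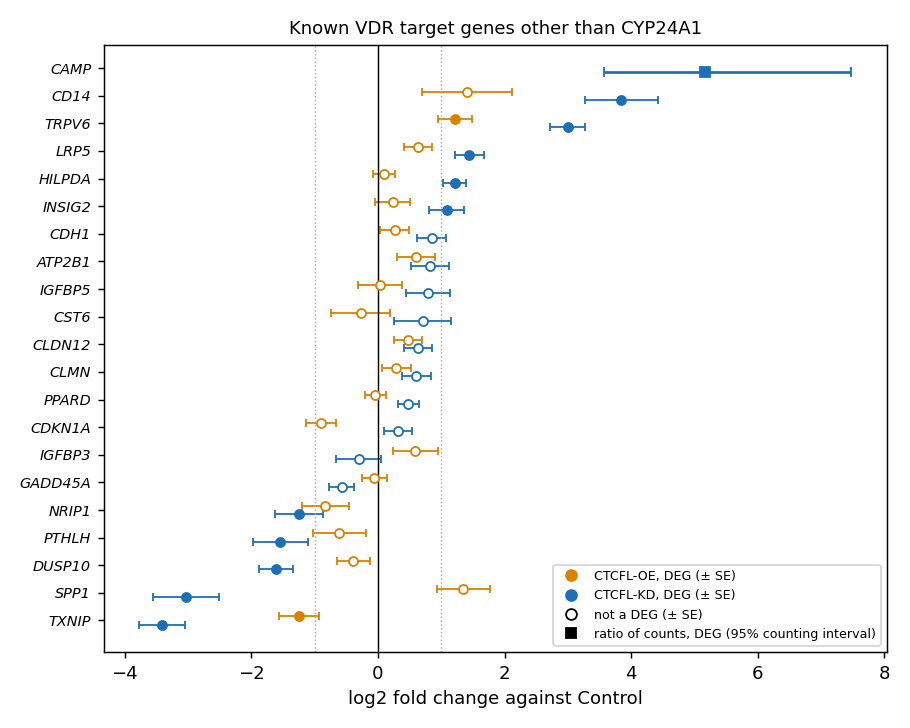
Log2 fold change against Control (x axis) of the 21 tested VDR target genes other than *CYP24A1*, ordered by their value in CTCFL-KD; filled symbols are DEGs, open circles are not, bars are ± SE, and the square is a ratio of counts with its 95% counting interval. In CTCFL-KD 6 are filled to the right and 5 to the left, and in CTCFL-OE only *TRPV6* and *TXNIP* are filled.

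Transcripts of proteins that work with VDR on DNA were counted next. Of 13 listed coregulators 12 were tested, of which 1 fell in CTCFL-KD, about the share of 7.94% among all tested genes. In CTCFL-OE 0 were DEGs by edgeR, by DESeq2 or at an unadjusted p under 0.05. *SNAI1*, a repressor known to act on the *VDR* gene, was at 12.1, 10.9 and 9.62 CPM in Control, 9.03, 8.47 and 8.05 CPM in CTCFL-OE and 3.16, 2.85 and 3.07 CPM in CTCFL-KD. The knockdown value was -1.84 ± 0.18 (SE; edgeR quasi-likelihood, Benjamini-Hochberg adjusted p = 3.94e-05). The list medians were -0.32 in CTCFL-KD and -0.13 in CTCFL-OE. In CTCFL-KD replicate 1 several coregulator genes were far below the other CTCFL-KD libraries, such as *EP300*, a histone acetyltransferase gene, at 24.3 CPM against 110 and 98.3 CPM, and without that library the CTCFL-KD median was -0.27.

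Of 16 listed nuclear receptors that can pair with retinoid X receptors or belong to that family, 12 were tested, of which 1 rose in CTCFL-KD, where 15.3% of all tested genes did. In CTCFL-OE 0 were DEGs by edgeR or DESeq2 and 1 had an unadjusted p under 0.05. *RARB*, a retinoic acid receptor gene, was at 0.200, 0.194 and 0.304 CPM in Control and 0.541, 1.31 and 1.26 CPM in CTCFL-KD, higher by a log2 value of 2.19 ± 0.44 (SE; edgeR quasi-likelihood, Benjamini-Hochberg adjusted p = 0.00313). It passed the filter on low counts through 2 CTCFL-KD libraries and 1 CTCFL-OE library, with 0 Control libraries over the cutoff. *RARB* thus entered the test only through groups where it was higher than in Control. *RARA*, at 19.8, 18.3 and 20.4 CPM in Control and 11.5, 9.10 and 8.82 CPM in CTCFL-KD, had a log2 fold change of -0.999 ± 0.18 and missed the fold threshold narrowly, while DESeq2 called it a DEG. It is named after its values were seen. *THRB*, a thyroid hormone receptor gene, was lower in CTCFL-KD than in CTCFL-OE by -1.10 ± 0.25, a call that was lost without CTCFL-KD replicate 1. The list medians were 0.26 in CTCFL-KD and 0.02 in CTCFL-OE, and the latter was 0.09 without CTCFL-OE replicate 1. The pathway lists were drawn up with earlier results of these data known. As lists they were compared by counts and medians alone, and the adjusted p of their single genes, taken over all tested genes, are not independent evidence.

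The fall of *CYP24A1* was set beside its chromosomal neighbours. Within 1 Mb of its start, 23 other genes are annotated and 6 were tested, of which 1 was a DEG in CTCFL-OE by edgeR and by DESeq2, where 2.07% of all tested genes were by edgeR. In CTCFL-KD 0 were DEGs by either tool and 1 had an unadjusted p under 0.05, where 23.2% of all tested genes were DEGs. The nearest tested genes were *PFDN4*, a chaperone subunit gene whose start lies 34.1 kb upstream, with log2 fold changes of -0.49 ± 0.34 (SE) in CTCFL-OE and -0.0039 ± 0.34 in CTCFL-KD, and *BCAS1*, 103 kb downstream, with 0.20 ± 0.28 and 0.15 ± 0.29. *ZNF217*, a transcription factor gene often amplified in carcinomas together with *CYP24A1*, had values of -0.11 ± 0.34 and -0.43 ± 0.34. *DOK5*, 302 kb upstream, fell in CTCFL-OE by 1.08 ± 0.20 on the log2 scale (edgeR quasi-likelihood, Benjamini-Hochberg adjusted p = 0.0342) and had a value of 0.51 ± 0.19 in CTCFL-KD. The CPM of *PFDN4* and *ZNF217* in CTCFL-KD varied widely between libraries, with an SD of 32.2 and 29.8 CPM around means of 54.0 and 57.8 CPM.

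**Figure D5:**
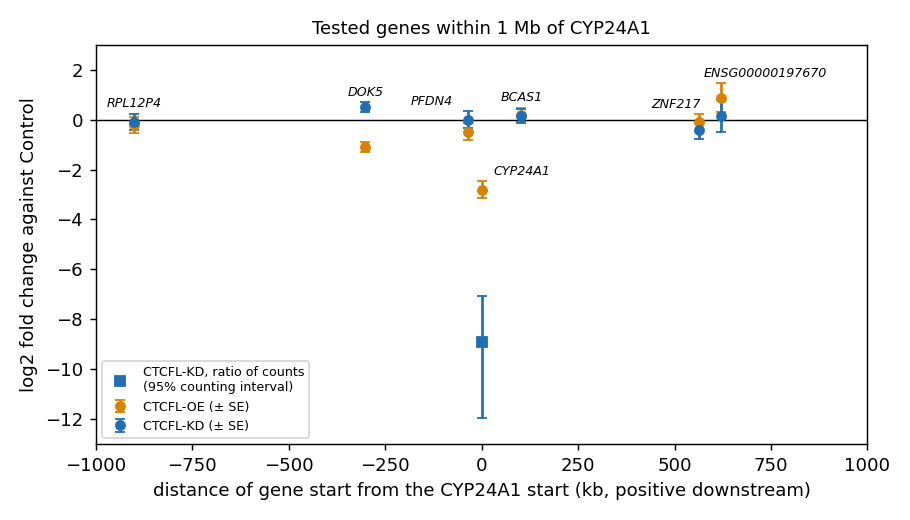
Log2 fold change against Control (y axis) of *CYP24A1* and the 6 other tested genes within 1 Mb, by distance of their start from that of *CYP24A1* in kb (x axis, positive in the direction of transcription of *CYP24A1*); circles are fitted values ± SE and the square is a ratio of counts with its 95% counting interval. *CYP24A1* is lowest in both groups, *DOK5* is a lower DEG in CTCFL-OE at -1.08, and *PFDN4* and *BCAS1*, the nearest tested genes, are DEGs in neither.

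The genes whose level across the 9 libraries was most like that of *CYP24A1* were named among 12789 protein-coding genes by Pearson's r of log2 CPM, as a description only, since the libraries share their groups and depth. Among them were *MYEOV* (r = 0.995), *ZYX* (0.991), *ZC3H12A* (0.989) and *DLX2* (0.989), and 182 genes had an r above 0.95. Their levels fell in the same order of groups, as for *MYEOV* at mean levels of 9.27, 3.92 and 0.739 CPM in Control, CTCFL-OE and CTCFL-KD. For *VDR* they were *CDV3* (0.996), *TGM2* (0.995), *LASP1* (0.994), *UBAP1* (0.994) and *RRP15* (0.993), and 380 genes had an r above 0.95. *TGM2*, the gene of tissue transglutaminase, went from 518 to 103 and 15.5 CPM, a wider range than that of *VDR*.

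Markers of other cells and the library that stood apart were set beside these results. Of 8 fibroblast markers 3, *COL3A1* and *DCN* among them, were at 0 counts in all Control libraries, and the summed level was 27.7 to 33.4 CPM in Control, 24.7 to 44.6 CPM in CTCFL-OE and 36.6 to 42.5 CPM in CTCFL-KD. *COL1A2* was at 0 in Control and at 14.1, 14.2 and 13.5 CPM in CTCFL-KD, at least 99.8-fold higher against 3 counts per Control library. *COL3A1* held 8, 9 and 8 counts in CTCFL-KD and 0 in each CTCFL-OE library, at least 4.05-fold above Control against the same floor. Without *COL1A2* the sum of the list was 23.1 to 28.4 CPM in CTCFL-KD, and the other tested markers, *COL1A1* (-0.36) and *ACTA2* (-0.24), were not DEGs there. Blood and endothelial markers summed to 7.06 to 7.14, 8.73 to 10.4 and 4.93 to 5.59 CPM in Control, CTCFL-OE and CTCFL-KD, and of the 2 tested, *PECAM1* fell in CTCFL-KD at a log2 fold change of -2.56, with a value of -1.01 in CTCFL-OE. *VWF*, the other one, had values of -0.11 in CTCFL-KD and 0.71 in CTCFL-OE, where each library lay above Control. The part of the marker shifts and of the mitochondrial shares in the vitamin D genes was not tested. Without CTCFL-KD replicate 1 the log2 fold changes in CTCFL-KD were -1.56 ± 0.13 (SE) for *VDR*, 1.74 ± 0.20 for *CYP2R1* and 0.27 ± 0.12 for *RXRB*, and the calls of *CYP24A1* and *CYP27A1* held.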

How the data were processed

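RNA-seq of 9 OVCAR3 libraries was used, prepared by the authors with a stranded mRNA kit and sequenced as read pairs. Per the study's methods and the submitters' processing notes, the authors trimmed reads with Trimmomatic, mapped these to GRCh38 using STAR and obtained gene counts from featureCounts. The notes also name kallisto, with no role. The deposited values are whole-number counts per gene without normalization. Annotation release, strand setting and handling of multi-mapping reads are not given in the sources used here. All 9 single-library files matched their columns of the deposited matrix, and no 2 libraries were identical. GENCODE 44 gave symbols for 60463 of 60660 identifiers, positions and exon lengths, and 37834 genes had at least 1 count. Promoters came from the RefSeq table of GRCh38.p14, which had no match for *CYP24A1*, *CYP27B1* and *VDR*.

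Counts were filtered with filterByExpr, scaled by TMM and fitted by edgeR 4.0.16 in R 4.3.3 (glmQLFit with robust estimation, condition only, all 9 libraries, 17794 genes), with quasi-likelihood tests and Benjamini-Hochberg adjustment over all genes. DESeq2 1.42.0 was an alternative. SEs were derived from the fold change and the F statistic. Where a group held 1 to 3 counts in all, a ratio with an exact counting interval replaced the fitted fold, and a group at 0 was set to 3 counts per library. Depth limited precision to 0.117 to 0.271 CPM per library for a count of 0. Code was tested on simulated data. Python 3.11.15 with pandas 2.3.3, numpy 2.4.6 and matplotlib 3.10.9 made tables and figures.

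The 7 genes and the pathway lists were chosen with earlier results of these data known. All 7 were described. Of each pathway list up to 4 called genes per direction and comparison were named by size of fold change, with exceptions marked, besides tested genes within 1 Mb of *CYP24A1* and the 5 genes of mean CPM of at least 1 most like *CYP24A1* or *VDR*, of which 1 is not reported here.

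Replicate numbers were checked for pairing. Over 11622 genes, deviations from the group means correlated at 0.384, 0.221 and 0.265 between same-numbered libraries of Control and CTCFL-KD. Between libraries of unlike number in these groups the correlations ran from -0.382 to 0.154, the highest for Control replicate 3 and CTCFL-KD replicate 2. Deviations within a group of 3 are tied to each other, and the CTCFL-KD RNA came from an earlier experiment. These correlations therefore cannot decide whether the numbers pair the libraries, and the main fit used condition only. Between same-numbered libraries of Control and CTCFL-OE the correlations were -0.045, 0.225 and -0.050. Labels name no shared culture or day.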

Additional observations from a re-analysis of the deposited data

How the results depend on the processing

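Across 18 alternative fits, 401 of 417 values of the 7 genes and *CTCFL* kept their direction and call. *CYP24A1* and *CYP27A1* kept theirs in CTCFL-KD in the 17 that could be fitted, since a minimum of 10 counts in every library removes both, and *CYP2R1* and *VDR* in 18. The sign turned only for values near 0. In CTCFL-OE these were *CYP2R1* without 1 library (-0.14 to 0.24) and *RXRA* without 1 library (-0.17 to 0.013, the latter without CTCFL-OE replicate 1). *RXRA* in CTCFL-KD was -0.0059 with RLE scaling, -0.066 without a low-count filter, -0.029 and -0.050 by DESeq2 on 9 libraries and on 2 groups, -0.032 without Control replicate 2 and -0.047 without CTCFL-KD replicate 1, with 0.051 the highest without 1 library. Against CTCFL-OE it was -0.0084 to 0.17, the lowest without CTCFL-OE replicate 1. *CYP2R1* in CTCFL-OE was -0.0093 without Control replicate 1. The call of *CTCFL* in CTCFL-OE was lost without any 1 Control library (edgeR adjusted p of 0.125 to 0.176), and that in CTCFL-KD without CTCFL-KD replicate 3 (edgeR adjusted p = 0.0551). The 368 DEGs of CTCFL-OE became 826 without a low-count filter, 750 by DESeq2 and 835 by edgeR on the 2 groups, and 44 to 1184 without 1 library, the lowest without Control replicate 3 and the highest without CTCFL-OE replicate 1. The 3032 DEGs between CTCFL-KD and CTCFL-OE became 1947 with at least 10 counts in every library. In CTCFL-OE the uptake list went from 0 to 1 without a low-count filter, by DESeq2 on 9 libraries or on 2 groups and by edgeR on 2 groups, and was 0 to 1 without 1 library, while VDR targets were 0 to 4 and nuclear receptors 0 to 1. Nuclear receptors in CTCFL-KD went from 1 to 2 with RLE scaling, without a low-count filter and by DESeq2 on 9 libraries or 2 groups, to 0 with at least 10 counts or by edgeR on 2 groups, and were 1 to 3 without 1 library. The causes were not tested. With the replicate number as a block, CTCFL-KD had 4027 DEGs against 4132, and *VDR* was at -1.59, *CYP2R1* at 1.80 and *CYP24A1* in CTCFL-OE at -2.88. The block changed no call of the 7 genes, but *VDR* in CTCFL-OE no longer passed the adjusted p threshold. Genes under about 10 counts per library, such as *CYP27A1* outside CTCFL-KD, are limited by depth.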
